A study of Arabidopsis thaliana with 4 samples.

Results

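The 4 arrays of the study, 2 for each of a pair of Arabidopsis thaliana lines that carry the cowpea transcription factor VuDREB2A, were taken as 1 group and compared with wild type. All 4 of the 4 arrays enter, and the question is which transcripts moved the same way with the full-length and with the truncated form of the factor. Plants were Col-0, 21 days old, and whole plants were harvested without any treatment. They had grown on vertical plates of half-strength MS agar with 1% sucrose, at 25 °C and 12 h of light per day. One line carries 35S:VuDREB2A (full length) and the other 35S:VuDREB2A (truncated), and the reference on every array was wild type Col-0 of the same age. The 35S promoter, which comes from a plant virus, is active in nearly all tissues. Each form is represented by 1 line as far as the labels state.

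Each array is a 2-colour hybridisation of 1 line against wild type. In replicate 1 of both lines the transgenic RNA carried Cy3 and the wild type RNA Cy5, and replicate 2 had the dyes swapped. The study's design text counts 2 wild type replicates, so arrays with the same replicate number may hold the same wild type RNA. In that case the 4 arrays are not independent, and a change in a line and the opposite change in a shared wild type sample cannot be told apart. Nothing in the labels says that the replicates are separate growths, so p-values measure the spread between these arrays, which may be technical.

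DREB2-type factors are AP2/ERF proteins that bind the dehydration-responsive element (DRE) in promoters of stress genes. In Arabidopsis the native DREB2A is kept low in unstressed plants, and an active form is known for turning on dehydration genes and heat shock genes, the latter partly through heat shock factors. Heat shock proteins are chaperones, which hold, fold or disaggregate other proteins.

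Of 43603 probes, 65.6% to 72.5% were well above background in a channel, and 0 gene spots were saturated. Tests ran on 22438 features, of which 20337 carried a locus. The median SD of the log2 ratio over the 4 arrays was 0.13, and the number of arrays limits the precision. The array names no probe for cowpea VuDREB2A, and the level of the transgene is therefore not known here. Of the organ markers, all 25 photosynthesis genes and 22 of 23 root markers were tested, against 7 of 12 floral markers and 1 of 7 seed storage genes.

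A feature is called common here if limma gave an adjusted p below 0.05 for the mean log2 ratio of the 4 arrays against 0 and all 4 ratios had the same sign. In this test a difference between the lines counts as spread, so a gene that moved strongly in 1 line only is not called. Of the 22438 features, 2895 were common (12.9%), with 1643 higher (7.32%) and 1252 lower (5.58%) than wild type. Most changes were small. The median size was 0.35 on the log2 scale among rises and 0.34 among falls, and 26 rises and 16 falls reached a mean of 2-fold. On every single array 11 rises and 2 falls were at least 2-fold. In all, 38.8% of the features had 1 sign on all 4 arrays (20.8% higher and 18.1% lower), among them 5821 that did not pass the test. Opposite signs in the lines, the same on both arrays of each, were measured for 1709 features higher in the full-length line and 1437 higher in the truncated line.

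At the limit of the test, HAB1, a protein phosphatase gene of abscisic acid signalling, had a mean of 0.23 (adjusted p = 0.0498), and SUS1, a sucrose synthase gene, with a mean of 0.34 and a wider spread, fell outside (adjusted p = 0.0523). The count depends on the array set and on the scaling. Without full-length replicate 1, full-length replicate 2, truncated replicate 1 or truncated replicate 2, the calls numbered 1093, 1208, 1387 and 1498. With median centring in place of loess 41 features were called. Median centring together with a term for dye orientation gave 821 rises and 1347 falls, so the excess of rises over falls turns with the scaling. Of 45 named genes with another probe above background throughout, 21 had a probe whose mean differed by over 1.5 times and 2 a probe of opposite sign. Of the 113 genes chosen for naming by rule, 28 stayed called in each alternative in which they were tested, median centring included. Counted in the same way, 58 stayed called in all but median centring, and 66 with any 1 array left out. HSP17.6A and HSP23.6-MITO, among the 28, were each tested in 15 of the 16 alternatives. The 28 are PDF1.2c, PDF1.3, AT1G07400, GPT2, HSP90.1, CORI3, AT1G53540, AT5G51440, AT5G48570, HSP17.6II, AT1G65370, SAG29, HSP17.6A, HSFA2, HSP23.6-MITO, RD20, STP1, AT4G39795, AT1G33055, HMA2, MEE14, CML38, AT1G80440, BT2, ASN1, AT1G02610, AT2G15960 and AT3G62550.

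**Figure D1:**
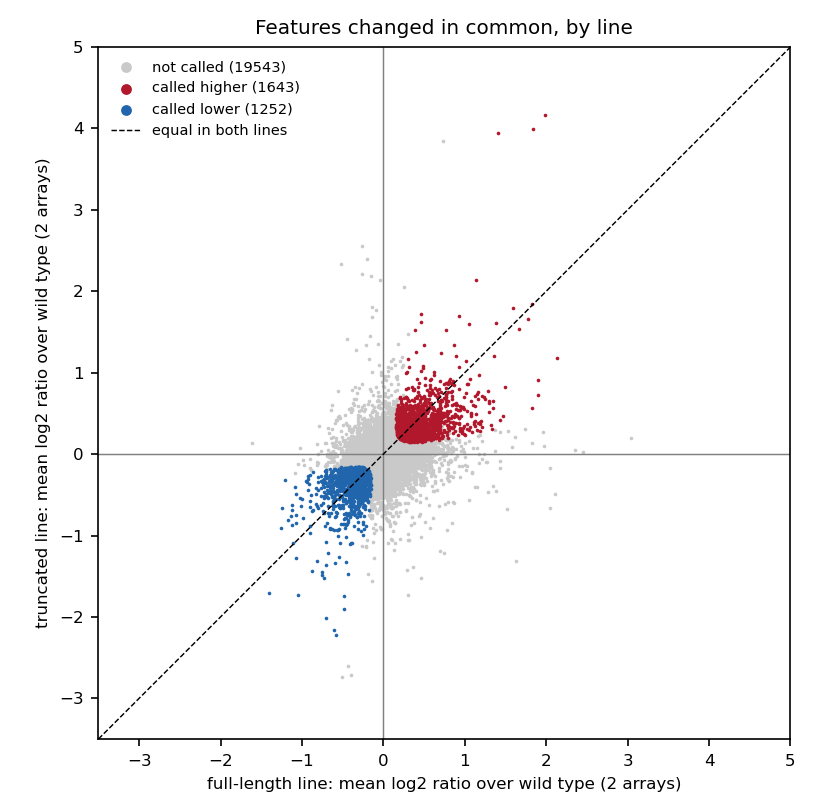
Mean log2 ratio over wild type in the full-length line (x axis, 2 arrays) and in the truncated line (y axis, 2 arrays), with 1 point per feature tested and the dashed line marking equal ratios. The 1643 features called higher (red) and 1252 called lower (blue) lie in the 2 quadrants where the lines share a sign, and most called points lie within 1 log2 unit of 0.

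Several large rises had almost the same ratio on all 4 arrays. AT1G07400, which the name table lists without a symbol, had log2 ratios of 1.88 and 1.78 in the full-length and 1.87 and 1.82 in the truncated line (mean 1.84 ± 0.05 SD, n = 4; 3.57-fold; limma adjusted p = 0.000157). GPT2, the gene of a plastid glucose-6-phosphate translocator, had 1.88 and 1.67 in the full-length and 1.72 and 1.59 in the truncated line (mean 1.72 ± 0.12; 3.29-fold; limma adjusted p = 0.000436). In both genes the values of the truncated and the full-length line overlapped, and the other probe of GPT2 gave a mean of 1.103. The loci AT5G51440 (1.60, 1.74, 1.35 and 1.71) and AT1G65370 (1.33, 1.39, 1.15 and 1.26) also rose on every array of both lines, with means of 1.60 ± 0.18 and 1.28 ± 0.10. ELIP1, an early light-induced protein gene, had 1.23 and 1.13 in the full-length and 0.99 and 0.96 in the truncated line (mean 1.08 ± 0.12; 2.11-fold).

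The largest mean rises were those of plant defensin genes, and they were common in sign but not in size. PDF1.2c had log2 ratios of 1.98 and 2.00 in the full-length line and 4.18 and 4.16 in the truncated line (mean 3.08 ± 1.26 SD, n = 4; limma adjusted p = 0.0104). PDF1.3 had 1.80, 1.88, 3.95 and 4.04, and PDF1.2b had 1.31, 1.52, 4.13 and 3.76, in the same order. PDF1.2b was not called with marked spots kept (adjusted p = 0.0556) or with median centring (adjusted p = 0.0608). All 3 had ratios above 1 on every array, and each differed between the lines (adjusted p = 0.00336 to 0.00640), by 2.16 to 2.53 log2 units. The 4th member of the family, PDF1.2, had 0.57, 0.89, 3.68 and 4.01 and missed the threshold (adjusted p = 0.0549). The genes of this family are near-identical in sequence, and 1 probe may read more than 1 of them. CORI3, a cystine lyase gene, and LOX2, a lipoxygenase gene of jasmonate synthesis, showed the reverse order of the lines. CORI3 had 2.12 and 2.13 in the full-length and 1.27 and 1.101 in the truncated line, and LOX2 had 1.93 and 1.87 against 0.93 and 0.89. Other LOX2 probes gave smaller means, from 0.30 to 0.92. BAM5, a beta-amylase gene, averaged 1.31 ± 0.71, with wild type well above background on 2 of 4 arrays, and was not called without full-length replicate 1 (adjusted p = 0.0552).

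**Figure D2:**
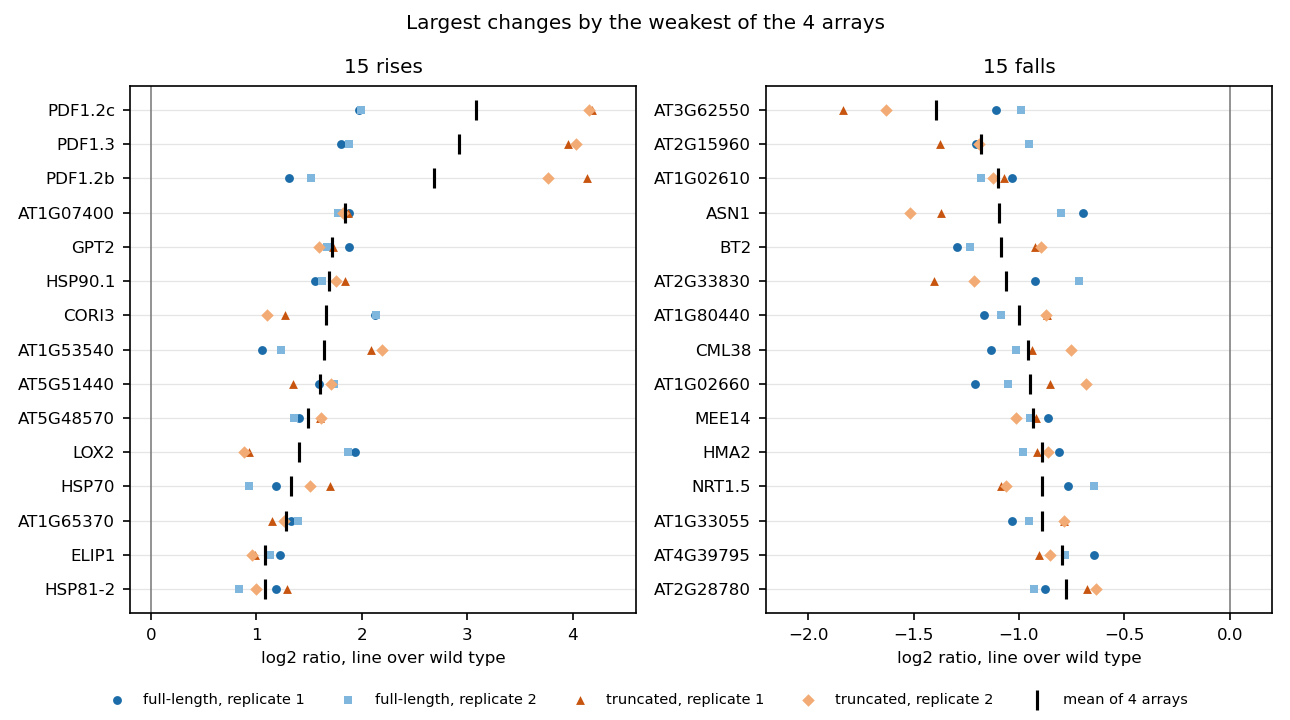
Log2 ratio of line over wild type on each of the 4 arrays (coloured symbols) and the mean (black tick) for the 15 rises and the 15 falls whose weakest array moved most, with the symbols of each line in its own colour. The defensin genes at the upper left separate by line, at about 2 or less in the full-length line and near 4 in the truncated line. In contrast, AT1G07400, GPT2 and HSP90.1 have their 4 symbols close together between 1.56 and 1.88.

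Chaperone genes of the cytosol and organelles rose in both lines. Of 27 tested members of that list 20 were called higher and 0 lower (74.1%, against 7.32% of all features), with a median log2 ratio of 0.44 against 0.01 over all features. The gene lists were chosen with earlier results of these data known, so such shares describe the lists and are not a test. HSP90.1, a cytosolic Hsp90 gene, had 1.56 and 1.62 in the full-length and 1.84 and 1.75 in the truncated line (mean 1.69 ± 0.13 SD, n = 4; 3.23-fold; limma adjusted p = 0.000436). AT5G48570, listed as the peptidyl-prolyl isomerase ROF2, had 1.40, 1.36, 1.60 and 1.61 (mean 1.49 ± 0.13). HSP70, a cytosolic Hsp70 gene, had 1.19, 0.93, 1.70 and 1.51 (mean 1.33 ± 0.34). In these 3 genes each truncated value lay above each full-length value, but no difference between lines passed the test for any member of the list.

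The Hsp90 family moved together: HSP81-2, HSP81-3 and Hsp81.4 averaged 1.08 ± 0.20, 0.67 ± 0.16 and 0.69 ± 0.12. Other probes gave smaller rises, with means of 0.67 for HSP81-2 and 1.32 for HSP90.1. HSP101, the disaggregase of the cytosol, had 0.80, 0.84, 0.88 and 0.97, and CLPB4, its mitochondrial relative, averaged 0.56 ± 0.08. The co-chaperone genes Hop3 (1.05 ± 0.20), Fes1A (0.58 ± 0.06) and ROF1 (0.56 ± 0.18) rose as well. Smaller rises were measured for the mitochondrial chaperonin genes HSP60 (0.44 ± 0.21) and CPN10 (0.40 ± 0.12), for the constitutive HSC70-1 (0.29 ± 0.07) and for the J-protein genes J2 (0.26 ± 0.08) and J3 (0.37 ± 0.12). The 7 members not called ranged from -0.11 for HSBP, a negative regulator of heat shock factors, to 0.38 for CLPB3, the chloroplast disaggregase, whose values were 0.18, 0.09, 0.67 and 0.58. Hsp70b was at 0.07 and the BAG-domain genes BAG5 and BAG6 at -0.06 and 0.02. With 1 array left out, 15 or 16 of the 27 were called, and with median centring 2.

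Small heat shock proteins bind unfolding proteins and hold them for the other chaperones. Of 7 list entries with a symbol 6 were tested and 4 were called higher (66.7%, against 7.32% of all features), with a median of 1.01. Most of the list lies outside this count: 9 further entries have no symbol in the table of names and were left out. All 9 were tested and 6 of them were called higher, AT1G07400, AT5G51440 and AT1G53540 among them, and 1 of the 9, AT1G53540, differed between the lines. The 4 symbol-bearing genes that rose had larger values on both truncated arrays. HSP17.6II had 1.05 and 0.80 in the full-length and 1.70 and 1.70 in the truncated line (mean 1.31 ± 0.46). HSP17.6A had 0.77, 0.77, 1.58 and 1.47, and HSP17.4 had 0.43, 0.50, 1.54 and 1.70. The difference between lines passed the test in each of these 3 genes. HSP17.4 was not called without truncated replicate 1 (adjusted p = 0.0776) or truncated replicate 2 (adjusted p = 0.0620). HSP23.6-MITO, of mitochondria, was well above background in the transgenic RNA on all 4 arrays and in the wild type RNA on none, so its rise is at least 1.95-fold (adjusted p = 0.00755). HSP18.2 was not common: it had 0.96 and 0.93 in the full-length and -0.31 and -0.25 in the truncated line. HSP21, of chloroplasts, had a mean of 0.21, with wild type not well above background on any array.

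Among heat shock factors, the regulators of these genes, 1 of 17 tested was called higher (5.88%, against 7.32% of all features). HSFA2, which sustains the heat response, had 1.098 and 0.77 in the full-length and 1.12 and 1.03 in the truncated line (mean 1.00 ± 0.16 SD, n = 4; 2.00-fold; limma adjusted p = 0.00261). HSFA3, in Arabidopsis a known direct target of DREB2A, had 0.02, -0.19, -0.13 and -0.34 and was not called (adjusted p = 0.174). HSF4, also known as HSFB1, had 0.79 and 0.83 against 0.11 and 0.22 (adjusted p = 0.0596). Without truncated replicate 1, 2 factors were called higher. The other 14 factors had means from -0.21 to 0.17, and the list's median was -0.04. MBF1C, a coactivator of heat responses, rose by 0.63 ± 0.28 with a larger ratio in the full-length line (0.90 and 0.83) than in the truncated line (0.45 and 0.33), a difference that missed the threshold (adjusted p = 0.0633).

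Chaperones of the endoplasmic reticulum rose by less. Of 14 tested genes 8 were called higher and 0 lower (57.1% higher, against 7.32% of all features). The median was 0.27, and the list medians of the 4 arrays lay close together in the plot of gene lists. CNX1, a calnexin gene, had 0.84, 0.83, 0.73 and 0.70 (mean 0.78 ± 0.07). The Hsp70 genes BIP1 and BIP2 averaged 0.76 ± 0.18 and 0.69 ± 0.04. Other probes gave smaller rises, with means of 0.42 for CNX1 and 0.33 for BIP2, so the size depends on the probe. SHD, the Hsp90 of this compartment, averaged 0.45 ± 0.05. A further 4 rises were those of the J-protein genes ATERDJ3A (0.51) and ATERDJ3B (0.28), UNE5, a protein disulfide isomerase gene (0.33), and CRT1a, a calreticulin gene (0.25). BZIP60, the transcription factor of the unfolded protein response, had a mean of 0.00 ± 0.08 (adjusted p = 0.978). With median centring the median of the list was 0.12 and none of its genes was called.

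**Figure D3:**
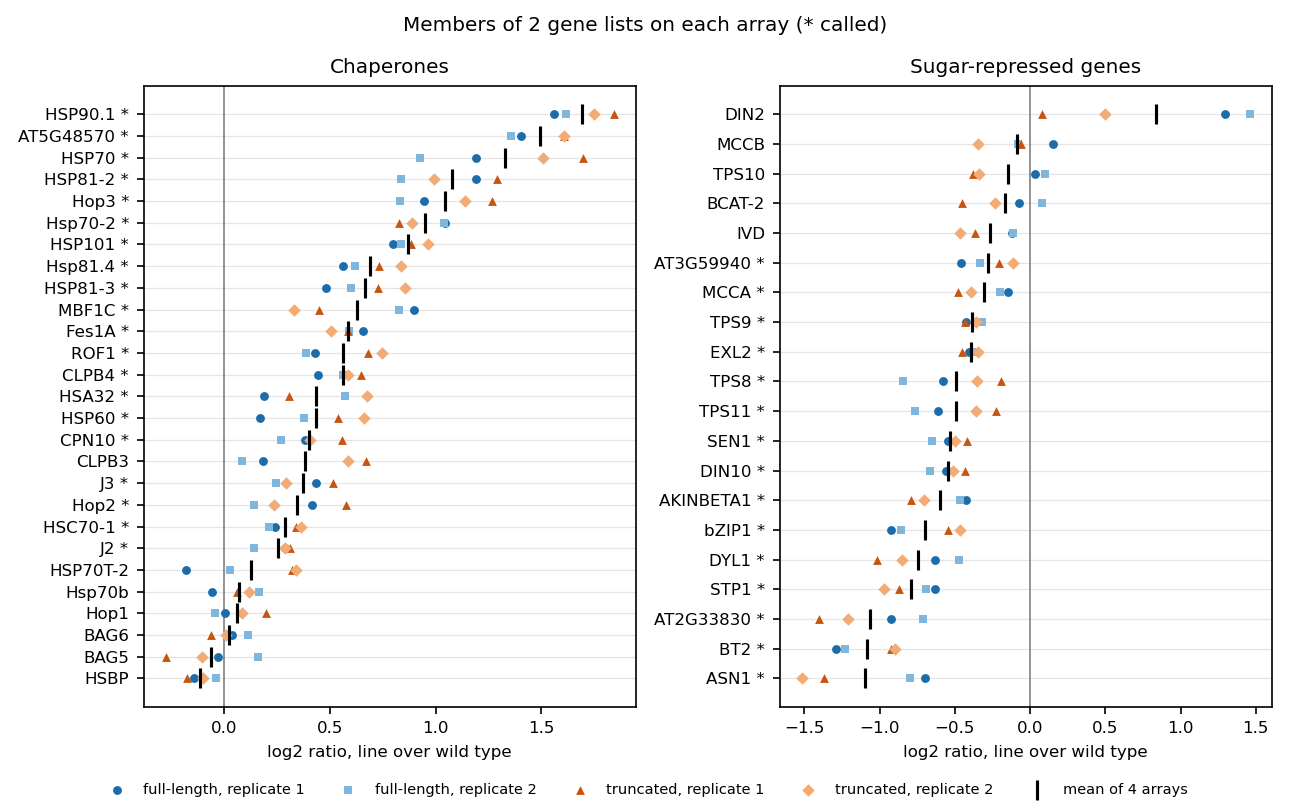
Log2 ratio of line over wild type on each of the 4 arrays (coloured symbols) and the mean (black tick) for the 27 tested chaperone genes and the 20 sugar-repressed genes, with an asterisk after each called gene. The 20 called chaperone genes lie to the right of 0 on all arrays, and the 15 called sugar-repressed genes to the left of 0 on all arrays.

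Genes that Arabidopsis turns down when sugar is plentiful fell together. Of 20 tested members of the sugar-repressed list 15 were called lower and 0 higher (75.0%, against 5.58% of all features), with a median of -0.49. The list medians of the 4 arrays were -0.50, -0.47, -0.44 and -0.43. This list too was chosen with earlier results of these data known. ASN1, an asparagine synthetase gene, had -0.70 and -0.80 in the full-length and -1.37 and -1.52 in the truncated line (mean -1.10 ± 0.41 SD, n = 4; 2.14-fold lower; limma adjusted p = 0.0092). BT2, a BTB and TAZ domain gene, had -1.29, -1.23, -0.92 and -0.90 (mean -1.09 ± 0.21), and AT2G33830, listed as the dormancy-associated DRM2, had -0.92, -0.71, -1.40 and -1.21 (mean -1.06 ± 0.31). ASN1 fell further in the truncated line, and its difference between lines passed the test. STP1, a hexose transporter gene, had -0.63, -0.69, -0.87 and -0.97.

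Kinase and transcription factor genes of the energy-starvation response were among the falls. AKINBETA1, a subunit of the SnRK1 kinase, averaged -0.60 ± 0.18 and bZIP1, a factor downstream of that kinase, -0.70 ± 0.23. DYL1, a relative of DRM2, was lower by a mean of -0.74 ± 0.24, SEN1 by -0.53 ± 0.10 and DIN10, a raffinose synthase family gene, by -0.54 ± 0.10. The trehalose-phosphate synthase genes TPS8, TPS9 and TPS11 fell (-0.49, -0.38 and -0.49), whereas TPS10 had -0.15 and was not called. Of the branched-chain amino acid breakdown genes, MCCA fell (-0.30 ± 0.16), whereas MCCB (-0.08), BCAT-2 (-0.17) and IVD (-0.27) were not called. DIN2, a beta-glucosidase gene, went the other way, with 1.29 and 1.46 in the full-length and 0.08 and 0.50 in the truncated line (adjusted p = 0.0568). With 1 array left out, 11 to 13 of the 20 were called lower, and with median centring 3.

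Among the 15 falls chosen by their weakest array were loci without a symbol in the name table. AT1G02610 had -1.04, -1.18, -1.07 and -1.12 (mean -1.10 ± 0.06 SD, n = 4; 2.15-fold lower; limma adjusted p = 0.00084), AT3G62550 averaged -1.39 ± 0.41 and AT2G15960 -1.18 ± 0.17. On every array of both lines AT1G02610 was at about the same depth. HMA2, a zinc-exporting ATPase gene, had -0.81, -0.98, -0.91 and -0.86, and MEE14 had -0.86, -0.95, -0.92 and -1.01. CML38, a calmodulin-like gene, averaged -0.96 ± 0.16, AT1G80440, listed as the kelch-repeat F-box gene KMD1, -0.998 ± 0.15, and NRT1.5, a nitrate transporter gene of xylem loading, -0.89 ± 0.22. AT1G33055, AT4G39795, AT1G02660 and AT2G28780 completed these falls, with means from -0.95 to -0.78.

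Falls with a larger mean but unequal lines were those of the vegetative storage protein genes, markers of the jasmonate wound branch. VSP2 had -0.61 and -0.55 in the full-length and -2.27 and -2.17 in the truncated line, and VSP1 had -0.68, -0.54, -2.22 and -2.10. Without truncated replicate 1 or replicate 2 neither was called (adjusted p = 0.0785 and 0.0783 for VSP2, 0.0681 and 0.0692 for VSP1). The loci AT5G37970 and AT5G37990 had means of -1.11 ± 0.73 and -1.19 ± 0.82 and lost their calls in the same way (adjusted p = 0.0655 to 0.0884). MLP328, a major latex protein-like gene, had -1.09, -0.33, -2.30 and -1.72 and lost its call without full-length replicate 1 (adjusted p = 0.0577) or truncated replicate 2 (adjusted p = 0.0663).

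The classical DRE-containing genes did not rise as a group. Of 20 tested, 2 were called higher and 4 lower (10% and 20%, against 7.32% and 5.58% of all features), with a median of 0.08. LTI78, known as RD29A and the textbook DRE target, had 0.11 and 0.33 in the full-length and 0.56 and 0.48 in the truncated line (mean 0.37 ± 0.19 SD, n = 4; limma adjusted p = 0.0337), and GolS2, a galactinol synthase gene, averaged 0.23 ± 0.09 (adjusted p = 0.0471). Without full-length replicate 2, truncated replicate 1 or truncated replicate 2 LTI78 was not called (adjusted p = 0.0785, 0.0946 and 0.0888). The falls were those of the dehydrin genes RAB18 (-0.28 ± 0.13) and LTI30 (-0.43 ± 0.26), of HIS1-3, a drought-induced linker histone gene (-0.40 ± 0.09), and of COR413-PM1, a cold-regulated membrane protein gene (-0.30 ± 0.07). KIN2, KIN1, ERD10, COR15A, COR47 and LTI65 (RD29B) ranged from 0.07 to 0.30 and were not called. With 1 array left out, 0 or 1 members were called higher and 1 or 2 lower, and COR413-PM1 and LTI30 each lost their call in 3 of the 4 cases, COR413-PM1 without any array but truncated replicate 2 (adjusted p = 0.0615 to 0.0738) and LTI30 without any but full-length replicate 2 (adjusted p = 0.0653 to 0.0945).

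Most native factors of the family were not called. DREB2A had 0.53 and 0.24 in the full-length and 0.22 and 0.04 in the truncated line (mean 0.26 ± 0.20; adjusted p = 0.0926), and its other probes gave 0.11 and 0.01. RAP2.4, a DREB-subfamily gene, averaged 0.30 ± 0.10, and RCD1, whose protein binds and restrains DREB2A, 0.29 ± 0.14. Other probes gave means of 0.09 to 0.25 for RAP2.4, and 0.12, 0.45 and 0.03 for RCD1. With the mean of all probes neither RAP2.4 nor RCD1 was called (limma adjusted p = 0.0526 and 0.0657). Neither kept its call with any of the arrays left out, except RCD1 without truncated replicate 2, and their adjusted p without an array ranged up to 0.123. DREB26, another family member, fell by 0.49 on the log2 scale (values -0.59, -0.51, -0.50 and -0.38; adjusted p = 0.00697). In the list of 10 tested genes 2 were higher and 1 lower (20% and 10%, against 7.32% and 5.58% of all features). With the mean of all probes 0 were higher and 1 lower.

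Of 20 tested genes of abscisic acid signalling and response 5 were called higher and 1 lower (7.32% and 5.58% of all features were), with a median of 0.08. Without either full-length array 1 was called higher, and without either truncated array 2. RD20, a caleosin gene induced by drought, had 0.91 and 0.80 in the full-length and 0.91 and 0.89 in the truncated line (mean 0.88 ± 0.05 SD, n = 4; 1.84-fold; limma adjusted p = 0.00193). ABF3, a bZIP factor of abscisic acid responses, averaged 0.42 ± 0.17, and CYP707A1 and CYP707A3, which encode hydroxylases that break the hormone down, had means of 0.23 and -0.55. Only RD20 of these held with each array left out. ABF3 was lost without either full-length array (adjusted p = 0.0650 and 0.0632), CYP707A3 without full-length replicate 1 (adjusted p = 0.0542) and CYP707A1 in each of the 4 cases (adjusted p from 0.0780 to 0.136). ADH1, the alcohol dehydrogenase gene, shows how a change in 1 line is left out: its ratios were 1.84 and 1.81 in the full-length and 0.14 and 0.14 in the truncated line (adjusted p = 0.0995).

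Glucosinolates are sulfur-containing defence compounds of the cabbage family. Of 26 tested genes of their synthesis, transport and breakdown 15 were called higher and 1 lower, with a median of 0.29. The shares were 57.7% and 3.85%, against 7.32% and 5.58% of all features. MYB28, the main activator of the aliphatic branch, had 0.61, 0.46, 0.68 and 0.45 (mean 0.55 ± 0.11), and CYP83A1, an enzyme of the same branch, had 0.48, 0.48, 0.33 and 0.38 (mean 0.42 ± 0.08). UGT74B1, the glucosyltransferase of the core pathway, averaged 0.45 ± 0.07, and SUR1, its carbon-sulfur lyase, 0.34 ± 0.12. The fall was that of MYB51, an activator of the indole branch (-0.40 ± 0.13). CYP83B1, of the indole branch, averaged 0.44 ± 0.25 but was not called without full-length replicate 1 or 2 or truncated replicate 1 (adjusted p = 0.0956, 0.0957 and 0.0663). The count of rises was 4 without either full-length array, 6 without truncated replicate 1 and 11 without truncated replicate 2. With median centring the list median was 0.18 and 0 genes were called higher.

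In camalexin synthesis, the other sulfur-containing defence pathway, 1 of 7 tested genes was common, as a rise (14.3%, against 7.32% of all features). GSTF6 had 1.88 and 1.78 in the full-length and 0.55 and 0.57 in the truncated line (mean 1.19 ± 0.73), and without full-length replicate 1 or 2 it was not called (adjusted p = 0.0671 and 0.0702). PAD3, which encodes the last enzyme of the pathway, had 2.19, 1.73, 0.37 and 0.17 (adjusted p = 0.0772). Among 17 glutathione transferase genes 6 were called higher and 1 lower (35.3% and 5.88%, against 7.32% and 5.58% of all features). GSTF2 had 0.85, 0.74, 0.70 and 0.60 and GSTU5 0.31, 0.34, 0.49 and 0.51, and neither differed between the lines past the threshold. Other probes of GSTF2 averaged 0.27 to 0.51. GSTU4 had 1.22 and 1.19 against 0.45 and 0.35, a difference between lines that passed the test, and it was not called without full-length replicate 1 or 2 (adjusted p = 0.0662 and 0.0668).

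Flavonoid genes make pigments and ultraviolet screens. Of 24 tested 10 were called higher and 1 lower (41.7% and 4.17%, against 7.32% and 5.58% of all features). The median was 0.43, with array medians of 0.18 and 0.12 in the full-length and 0.60 and 0.61 in the truncated line. Of the 24, 6 differed between the lines (3.12% of all features did). TT7, the flavonoid 3'-hydroxylase gene, was even, with 0.90, 0.64, 0.74 and 0.71 (mean 0.75 ± 0.11). F3H, the flavanone 3-hydroxylase gene, had 0.53 and 0.41 against 1.08 and 0.97, and FLS1, a flavonol synthase gene, 0.51 and 0.51 against 0.96 and 0.91. The other probe of F3H gave 0.09 and 0.32 in the full-length and 0.83 and 1.03 in the truncated line. TT5 (0.59 ± 0.17) and UGT78D2 (0.48 ± 0.09), a chalcone isomerase and a flavonoid glucosyltransferase gene, were called as well. GSTF12, which carries anthocyanin to the vacuole, averaged 0.82 ± 0.50 and was not called without truncated replicate 1 or 2 (adjusted p = 0.0714 and 0.0620). Its other probe gave a mean of 0.43. PAP1, an activator of anthocyanin genes, was not common, with -0.10 and 0.00 against 2.27 and 2.01. MYBL2, a repressor of the pathway, fell by 0.43 on the log2 scale (-0.11, -0.37, -0.48 and -0.77). The count of rises was 9 and 11 without a full-length array and 5 without either truncated array.

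Of 21 iron genes 6 were called higher and 1 lower (28.6% and 4.76%, against 7.32% and 5.58% of all features). The rises numbered 3 without full-length replicate 1, 4 without full-length replicate 2 and 5 without either truncated array. In the same list 11 genes differed between the lines (3.12% of all features did). OPT3, an iron and copper transporter gene of the phloem, averaged 0.66 ± 0.30, FRO3, a ferric reductase gene of mitochondria, 0.61 ± 0.18, and NAS2, of nicotianamine synthesis, 0.44 ± 0.12. YSL1 (1.23, 1.14, 0.45 and 0.35) and NAS1 (0.99, 0.89, 0.37 and 0.24) were higher in the full-length line and were each not called without full-length replicate 1 or without full-length replicate 2 (adjusted p from 0.0646 to 0.0824). The uptake genes IRT1 (-0.46, 0.15, 2.16 and 2.23) and FRO2 (0.17, 0.35, 2.02 and 2.08) were high in the truncated line only and are not common. FRU, the FIT factor of iron uptake, fell in both (-0.43 ± 0.19).

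Of 16 phosphate starvation genes 6 were higher and 1 lower (37.5% and 6.25%, against 7.32% and 5.58% of all features). In the same list 7 genes differed between the lines (3.12% of all features did). PEPC1, a phosphatase gene, had 1.11, 1.22, 0.60 and 0.77 (mean 0.92 ± 0.29), PAP17, a purple acid phosphatase gene, 0.79, 0.62, 0.75 and 0.58, and PHT1;4, a phosphate transporter gene, averaged 0.48 ± 0.04. PS2, another phosphatase gene, had 0.24, 0.53, 1.38 and 1.68, but its other probes gave 0.11 and 0.03, and 0.04 and 0.00, in the full-length line (means 0.45 and 0.37). It was not called without full-length replicate 2, truncated replicate 1 or truncated replicate 2 (adjusted p = 0.0564, 0.105 and 0.0786). RNS1, a ribonuclease gene with wild type well above background on 2 arrays, was not called without full-length replicate 1 (adjusted p = 0.0608). The membrane lipid genes SQD1, SQD2, MGD2 and MGDC had the opposite sign or no rise in the full-length line. No gene of the 14 tested in nitrate assimilation was common by limma, although 5 of them differed between the lines (3.12% of all features did).

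Of 13 genes of the ERF branch of ethylene and jasmonate defence 4 were higher and 2 lower. The shares were 30.8% and 15.4%, against 7.32% and 5.58% of all features. Beside the defensin genes, PR4, a chitin-binding protein gene, rose (0.98, 0.71, 0.45 and 0.19), and the factor genes ERF6 (-1.09, -0.96, -0.60 and -0.47) and ERF2 (-0.27 ± 0.05) fell. The other probe of ERF6 gave -0.35 and -0.49 in the full-length and -0.03 and -0.16 in the truncated line. ORA59, an activator of the defensin genes, had a mean of 0.26 ± 0.16 and was not called (adjusted p = 0.0664). Of 21 genes of jasmonate synthesis and the wound branch 3 were higher and 2 lower (14.3% and 9.52%, against 7.32% and 5.58% of all features). The third rise beside CORI3 and LOX2 was AOC1, an allene oxide cyclase gene (0.33, 0.40, 0.56 and 0.53). The repressor genes JAZ1, JAZ3 and JAZ10 had means from -0.19 to -0.12, and MYC2, the central activator, -0.11, and none was called. Of 13 salicylic acid genes PAD4 was called (7.69% lower, against 5.58% of all features), as a fall of small size (-0.26 ± 0.08). It was not called with any 1 array left out (adjusted p from 0.0736 to 0.112).

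Of 18 tested touch- and wound-induced early genes 4 were called lower and 0 higher (22.2%, against 5.58% of all features called lower). The number lower was 1 without either full-length array. TCH3, a calmodulin-like gene, had -0.77, -0.77, -0.40 and -0.44 (mean -0.59 ± 0.20). TCH4, a wall-modifying XTH gene (-0.98, -0.87, -0.36 and -0.24), SZF1, a zinc finger gene (-0.85, -0.88, -0.16 and -0.29), and WRKY40 (-1.34, -1.06, -0.36 and -0.28) fell further in the full-length line. These 3 were not called without either full-length array (adjusted p from 0.0775 to 0.119), and SZF1 not without truncated replicate 2 (adjusted p = 0.0526). Among 22 expansin and XTH genes 4 were called lower and 0 higher (5.58% and 7.32% of all features were), with a median of -0.09. The falls were those of EXPA8 (-0.73 ± 0.22), EXPA11 (-0.50 ± 0.30), XTH15 (-0.43 ± 0.05) and EXPA15 (-0.41 ± 0.11). With median centring 0 genes of that list were called. EXPA11 was not called without truncated replicate 1 or 2 (adjusted p = 0.0840 and 0.0852).

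Photosynthesis genes of the nucleus, the green tissue markers, lay below wild type in their means but moved with the replicate number. None of the 25 was called higher and 6 were called lower (24.0%, against 5.58% of all features), with a median of -0.23. The list medians were -0.46 and -0.37 on the replicate 1 arrays against -0.08 and 0.03 on the replicate 2 arrays. PSAG and PSAL, of photosystem I, had -0.46, -0.46, -0.24 and -0.30 and -0.55, -0.39, -0.38 and -0.15. RBCS1A, a Rubisco small subunit gene, had -0.71, 0.36, -0.60 and 0.55 and PSBO1, of photosystem II, -0.71, 0.46, -0.57 and 0.54. The sign of both followed the replicate number. Dye orientation and a possibly shared wild type RNA follow that number too, and they cannot be told apart here. The number called lower was 0 without either full-length array, 2 without truncated replicate 1 and 3 without truncated replicate 2. It was 12 with the mean of all probes and 10 with population-outlier spots left out, and 0 were called higher in both. Without full-length replicate 1 neither PSAG (adjusted p = 0.0615) nor PSAL (adjusted p = 0.0831) was called.

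Of the root markers 4 of 22 were called lower and 1 higher (5.58% and 7.32% of all features were), and the number lower was 1 and 0 without full-length replicates 1 and 2, and 0 and 2 without truncated replicates 1 and 2. CASP1 (-0.32 ± 0.15) and ESB1 (-0.31 ± 0.15), of the Casparian strip, fell, and HKT1, a sodium transporter gene, rose (0.31, 0.29, 0.76 and 0.87). The other probe of HKT1 gave -0.30, 0.42, 0.50 and 0.68. HKT1 was not called with the mean of all probes (limma adjusted p = 0.0611), with marked spots kept (0.0720) or with a term for dye orientation (0.0610). The summed view of this marker list is a median of -0.08, with array medians from -0.23 to 0.01. None of these 3 root calls held with each array left out, and the part of organ proportions in the other results was not tested. In whole plants, fewer cells of a type and less RNA per cell cannot be told apart. The floral list held 1 call among 7 tested genes (14.3%, against 5.58% of all features called lower). It was a fall of AGL20, the flowering activator known as SOC1 (-0.49, -0.30, -0.75 and -0.58).

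Transcripts of the organelle genomes were higher in both lines. This grouping by locus prefix was chosen after the values were seen. Of 66 tested chloroplast-encoded loci 44 were called higher and 0 lower (66.7%, against 7.04% higher among 20218 nuclear loci), with a median of 0.38 and array medians of 0.34, 0.39, 0.39 and 0.40. Of 53 tested mitochondrion-encoded loci 32 were higher and 0 lower, with a median of 0.28 and array medians of 0.34, 0.32, 0.25 and 0.28. The nuclear median was 0.01. Chloroplast loci were bright, with a median log2 intensity of 14.97 against 9.24 for nuclear loci, whereas mitochondrial loci, at 9.37, were not. With median centring the chloroplast median was 0.13 and the mitochondrial one 0.24, and 0 loci of either genome were called. With median centring and a dye term 9 and 18 were called higher.

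**Figure D4:**
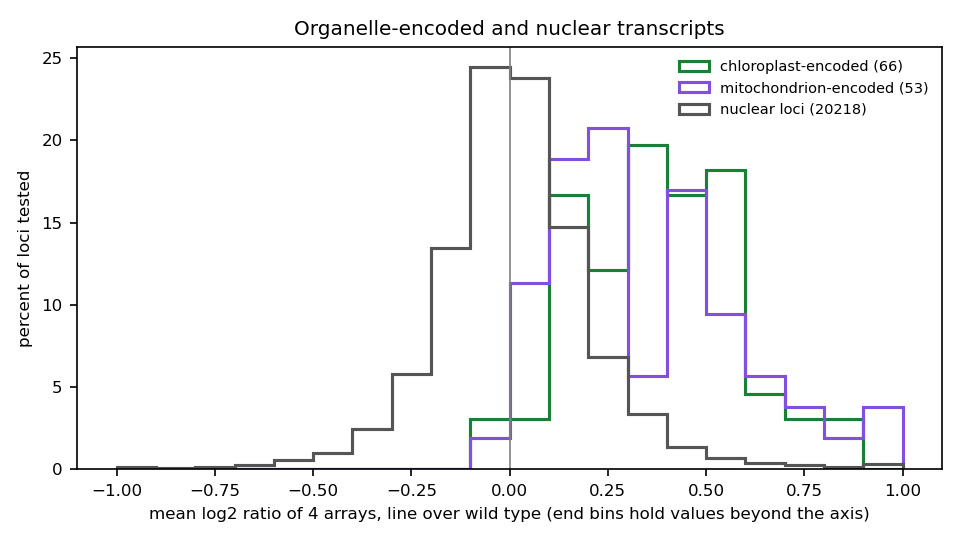
Percent of loci (y axis) by mean log2 ratio of the 4 arrays (x axis, bins of 0.1) for 66 chloroplast-encoded, 53 mitochondrion-encoded and 20218 nuclear loci. The nuclear distribution is centred at 0, and both organelle distributions lie mostly to its right, with medians of 0.38 and 0.28.

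Other groups gave few common changes. In the hydrogen peroxide and mitochondrial stress list 4 of 13 were called higher (30.8%, against 7.32% of all features), but 1 without full-length replicate 1 and 2 without any other array. NDB2, an alternative NADH dehydrogenase gene, had 0.55, 0.69, 0.39 and 0.55, and a mean of 0.29 by its other probe. The list median was 0.16, but 0.06 with the mean of all probes and -0.08 with median centring. APX1, the cytosolic ascorbate peroxidase gene, averaged 0.40 ± 0.16, but 6 other probes of it gave 0.04 to 0.22, and it was not called without full-length replicate 1 or truncated replicate 1 (adjusted p = 0.0654 and 0.0620). Of 10 evening clock genes ELF4 (-0.76, -0.63, -0.39 and -0.33) and TCP11, known as CHE (-0.37 ± 0.15), were lower (20%, against 5.58% of all features). Of 10 morning clock genes RVE2 (0.39 ± 0.12) and AT3G54500, listed as LNK2 (0.55 ± 0.30), were higher and LCL1, known as RVE4, was lower (-0.37 ± 0.09). The shares of that list called higher and lower were 20% and 10%, against 7.32% and 5.58% of all features. LHY and CCA1, the core morning genes, had means of 0.21 and 0.20 and were not called. Without full-length replicate 1, RVE2 (adjusted p = 0.0512), TCP11 (adjusted p = 0.0758) and AT3G54500 (adjusted p = 0.0740) were not called, and the last 2 were also lost without full-length replicate 2 (adjusted p = 0.0679 and 0.0692).

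Of 11 senescence genes SAG29, a sucrose transporter gene also known as SWEET15, rose (1.59, 1.41, 0.87 and 0.77), and the regulator gene NAP fell (-0.44 ± 0.12). Each was 9.09% of the list, against 7.32% of all features called higher and 5.58% called lower. Of 18 aquaporin genes 3 were called higher and 2 lower (16.7% and 11.1%, against 7.32% and 5.58% of all features). TIP2;3 had -0.94, -0.59, -0.48 and -0.17, RD28 averaged 0.28 ± 0.12, GAMMA-TIP 0.30 ± 0.06 and PIP2A 0.23 ± 0.09. None of these 4 calls held with each array left out: 0 genes of the list were called without either full-length array or truncated replicate 1, and 1 in each direction without truncated replicate 2. The mean of GAMMA-TIP was 0.02 with population-outlier spots left out, and 0.23, 0.03 and 0.02 by its other probes. The mean of PIP2A was -0.05 with median centring and -0.03 to 0.26 with its other probes. Of 13 reference genes 1 was called higher and 2 lower (7.69% and 15.4%, against 7.32% and 5.58% of all features). The lower ones were ACT8 (-0.36 ± 0.11) and PEX4 (-0.34 ± 0.13), and neither was called without full-length replicate 1 (adjusted p = 0.0509 and 0.0775), truncated replicate 1 (0.0599 and 0.0692) or truncated replicate 2 (0.0565 and 0.0517); GAPC1 was higher by its brightest probe (0.69 ± 0.29) but at -0.05, -0.02 and 0.09 by 3 other probes. ACT7, an actin gene, had 0.02, 0.03, 0.03 and 0.05.

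**Figure D5:**
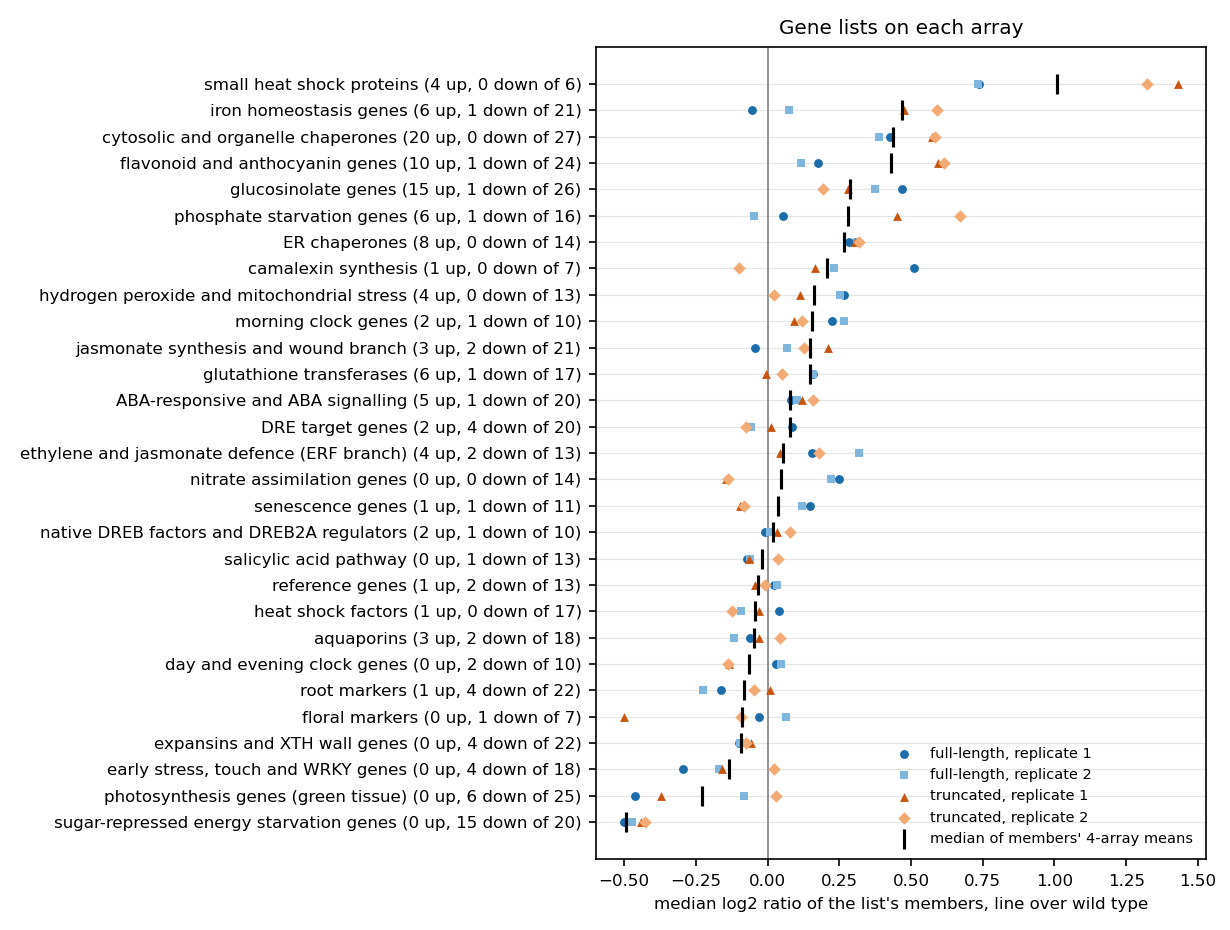
Median log2 ratio of the tested members of each gene list (x axis) on the 4 arrays (coloured symbols), with a black tick for the median of the members' means and the counts of called genes beside each name. Sugar-repressed genes have their 4 symbols together near -0.5 and chaperones of the endoplasmic reticulum near 0.3, whereas the symbols separate by line for iron, phosphate and flavonoid genes and by replicate number for photosynthesis genes.

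The common features were also tested for a difference in size between the lines, in the same samples. Of the 2895 common features 88 differed, with the truncated line further from 0 in 37 and the full-length line in 51. Of all 22438 features 700 differed (3.12%). The common call counts a difference between the lines as spread, so it selects against such features. The 88 therefore do not measure how far the lines shared a size. Over all common features the full-length line was further from 0 in 1597 and the truncated line in 1298. Among the 113 named genes 29 differed. The defensin and storage protein genes that were called, HSP17.4, HSP17.6A and HSP17.6II had the larger change in the truncated line, and CORI3, LOX2, BAM5, GSTF6, WRKY40 and TCH4 in the full-length line. The call for the mean of 4 arrays leaves out genes with a large change in 1 line, such as SAG13, a senescence gene with 2.75 and 3.34 in the full-length and -0.06 and 0.47 in the truncated line.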

How the data were processed

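Per the file headers, the authors extracted the 4 Agilent 2-colour arrays with the software Feature Extraction, version 10.7.3.1. The deposited scanner files hold median intensity per spot and local background in each channel, processed intensity and flags (0 or 1), and LogRatio, the log10 ratio of Cy5 over Cy3 per the file headers. The deposited table of processed values holds log2 ratios: against the LogRatio turned to line over wild type its columns had slopes of 0.998 to 1.00, and their medians were 0.01, -0.06, 0.04 and -0.07. Median rather than mean signals were used.

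Spots the software marked as non-uniform (9 to 39 per array) were left out. Background was corrected with normexp (offset 50), loess was run within each array (control spots weighted 0), and each log2 ratio was given the direction line over wild type from the labelled dyes. Of the probes of a locus the brightest was used. A feature was tested if its transgenic RNA was well above background on the 2 arrays of either line, or its wild type RNA on all 4 arrays. Of 20337 loci 20139 matched the RefSeq table of names. The array's annotation is older, so no coordinates are given.

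limma 3.58.1 in R 4.3.3 (lmFit, eBayes) tested the mean of 4 arrays against 0 (3 residual and 3.67 prior degrees of freedom), and a fit with 1 coefficient per line tested truncated minus full-length. P-values are Benjamini-Hochberg adjusted over all 22438 features, with a threshold of 0.05. The dyes are balanced within each line. The fit was tested on simulated data.

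Named genes are, among called loci well above background on all 4 arrays where higher, the 15 rises and 15 falls with the largest weakest array, then 5 of each by mean, then up to 4 called members of each list. Other members are named as examples of their list, chosen after their values were seen. The members and the 30 lists were chosen with earlier results of these data known. Of their 548 entries 25 have no matching name in the table and were left out. A search of promoters for DRE and heat shock elements was planned but not run, as no promoter sequence was used here.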

Additional observations from a re-analysis of the deposited data

Results flagged for a closer look

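Among 142 named genes and list medians, 1 array stood apart from the other 3 in 2 cases (by Dixon's test at the 95% level, which chance passes in about 1 of 20 groups). BCS1, a mitochondrial outer membrane ATPase gene, was at 0.12 in truncated replicate 1 and at 0.43 to 0.46 on the other arrays. The median of the salicylic acid list was at 0.0349 in truncated replicate 2 and below 0 on the other arrays.

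Of the 113 named genes 29 had a common sign but a difference between lines past the threshold (limma, adjusted p below 0.05). The truncated line was higher over wild type than the full-length line by 2.53 log2 units for PDF1.2b, 2.19 for PDF1.2c, 2.16 for PDF1.3, 1.15 for HSP17.4, 1.14 for PS2, 1.00 for AT1G53540, 0.86 for GSTF12, 0.78 for HSP17.6II and 0.76 for HSP17.6A. It was also less far below wild type for WRKY40 (0.88), SZF1 (0.64) and TCH4 (0.62). Among rises the truncated minus full-length difference was -1.27 for GSTF6, -1.16 for BAM5, -0.99 for LOX2, -0.94 for CORI3, -0.80 for GSTU4, -0.79 for YSL1, -0.68 for SAG29, -0.63 for NAS1, -0.52 for AT3G54500 and -0.50 for GAPC1. Among falls it was -1.64 for VSP2, -1.55 for VSP1, -1.41 for AT5G37990, -1.25 for AT5G37970, -0.70 for ASN1, -0.68 for AT3G62550 and -0.52 for EXPA11. No named gene passed the common call with a sign that differs between the lines, since the call requires 1 sign.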

How the results depend on the processing

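The count of common features (2895, with 1643 higher and 1252 lower) was within 1.5 times with a random replicate block (2521; consensus correlation 0.0488), Agilent's processed ratios (2420), the authors' deposited values (2436), both channels above background on all arrays (3095), the mean of all probes (3099) and, added after seeing the data, population-outlier spots left out (2757). Same-numbered arrays of the lines deviated together (correlation 0.775 across features, 2 pairs) but the labels pair nothing beyond dye orientation. That correlation is of deviations from the mean of each line, whereas the 0.0488 comes from a fit without a line term. A difference between lines lowers the 0.0488, so the count with the random block cannot show whether calls survive a shared replicate effect. With the replicate block in the fit 2578 features were called, 2271 of them shared, and 27 of the 113 named genes lost their call, among them PDF1.2b (adjusted p = 0.0598), TCH4 (0.0705), SZF1 (0.0903) and WRKY40 (0.0861). With it 1 of 18 early stress and touch genes and 1 of 22 root markers were called lower, 3 iron genes were called higher, and 9 photosynthesis genes were called lower. A line term in the fit, which takes the difference between lines out of the spread, gave 4962 (2764 higher, 2198 lower). Median centring gave 41 (21 and 20), and together with the replicate block, an alternative chosen after seeing the data, 2168 with 821 higher and 1347 lower. Keeping marked spots gave 1555 (817 and 738), no filter on dim probes 1695 (981 and 714), and a change of at least 0.5 log2 on each array 169 (113 and 56). Leaving out each array gave 1093 to 1498 (642 to 881 higher, 451 to 617 lower), with fewer arrays in the fit. Of the named genes 84 lost the call with median centring and 1 turned: PIP2A was at -0.0474, with or without the block. For the other differences in count the cause was not tested. The slide and scan as a block were not run because all arrays share 1 slide and 1 scan, nor was the promoter search. Probes not well above background in wild type limit HSP23.6-MITO, BAM5 and RNS1.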
